A study of Mus musculus with 5 samples.

Results

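The cells described here are candidate non-classical monocytes of the mouse kidney, chosen by rule from a merged single-cell RNA matrix. A barcode (the tag of 1 droplet) was taken when at least 2 of the 4 genes Cd300e, Ear2, Adgre4 and Treml4 had a unique molecular identifier (UMI, 1 counted RNA molecule). It also had to hold at least 500 UMIs and 200 genes, with at most 25% of UMIs on the 13 mitochondrial genes. S100a8 and S100a9 together had to stay under 1% of UMIs, and Ly6c2 and Lrp2 were each allowed 1 UMI at most. The rule took 100 of the 79202 barcodes that passed the depth and mitochondrial limits, which was 0.126% of them (exact 95% binomial interval, 0.103 to 0.154%). Of these 100 barcodes, 95 had a UMI of the leukocyte gene Ptprc, and they were 2.31% of the 4113 filtered barcodes with a Ptprc UMI and no more than 1 Lrp2 UMI. Since the 4 genes, S100a8, S100a9, Ly6c2 and Lrp2 chose the barcodes, their levels are given as a description only.

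The kidneys came from male C57BL/6J mice aged 6 to 8 weeks, for which the sources name no engineered allele. In unilateral ischemia-reperfusion (UIR), a model of acute kidney injury, the left renal pedicle was clamped for 35 min and the right kidney stayed in place. Kidneys were taken on days 1, 3, 14 and 28 after UIR and from sham-operated mice, giving 5 samples. The protocol names 3 mice for a kidney sample, and whether they were pooled within each of the 5 samples is not clear from the sources used here. The study's methods also speak of a merge of more matrices than the 5 library numbers, so a library number may not stand for a single original matrix. The matrix holds libraries numbered 1 to 5, and no label used here says which number is which sample. The libraries were therefore told apart by number only, all barcodes were treated as 1 pooled sample without replicates, and neither conditions nor time points were compared. No p-value was computed, and all intervals are exact 95% intervals that cover counting error only, not the spread between mice or between cells. CPM is the UMI count of a gene, summed over a group of barcodes, scaled so that all genes of the group sum to 1e6, and 3 UMIs in the 100 barcodes made 8.90 CPM. The labels give the cell type as goblet cell, but all 7 goblet cell markers looked for, Muc2 and Tff3 among them, had 0 UMIs in the 100 barcodes and 190 UMIs among the 337540330 UMIs of all filtered barcodes.

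Mouse blood monocytes fall into classical cells, which carry much Ly6C and Ccr2 and enter injured tissue, and non-classical cells, which carry little Ly6C and crawl along the inside of small vessels, including those of the kidney. Non-classical monocytes develop from classical ones, depend on the nuclear receptor Nr4a1, and are known for the fractalkine receptor Cx3cr1, the integrin subunit Itgal and the activating Fc receptor Fcgr4. Among the genes of the rule, Cd300e and Treml4 encode immunoglobulin-like receptors of myeloid cells, Ear2 an RNase A family ribonuclease, and Adgre4 an adhesion G protein-coupled receptor related to F4/80. Ace, a marker that was not in the rule, encodes angiotensin-converting enzyme. On GRCm38 (GENCODE vM21), Cd300e lies on chr11:115051917-115062177 on the minus strand, Ear2 on chr14:44102654-44103534, Adgre4 on chr17:55749984-55853662, Treml4 on chr17:48264295-48275360 and Ace on chr11:105967945-105989964, all 4 of these on the plus strand. Of the 670 words of 50 bases in the annotated Ear2 transcript, 278 (41.5%) also occurred in 5 other genes of the Ear family (Ear1, Ear6, Ear10 and 2 pseudogenes), so Ear2 counts can depend on how shared reads were assigned. No word of the transcripts of Cd300e, Adgre4, Treml4 or Ace occurred in another gene.

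Libraries 1 to 5 held 13, 26, 57, 2 and 2 of the 100 barcodes, so values for libraries 4 and 5 rest on 2 barcodes each. None shared its barcode sequence with a filtered barcode of another library. Their median depth was 3028 UMIs and 1210 genes, with depths from 700 to 19956 UMIs. Counting only those with a Ptprc UMI, they made up, of all such leukocyte barcodes, 1.27% (0.636 to 2.26%) in library 1, 2.05% (1.34 to 2.99%) in library 2, 3.79% (2.86 to 4.91%) in library 3, 0.433% (0.0525 to 1.55%) in library 4 and 2.15% (0.262 to 7.55%) in library 5. The interval of library 3 lay above those of libraries 1 and 4 and overlapped those of libraries 2 and 5. As a share of all filtered barcodes, library 2 was highest at 0.230% (0.150 to 0.337%), against 0.168% in library 3. The interval of library 3 (0.128 to 0.218%) overlapped that of library 2 and that of library 1 (0.0691 to 0.222%). It lay above those of library 4 (0.00215 to 0.0640%) and library 5 (0.00190 to 0.0567%). Filtered barcodes of library 3 were also shallower, at a median of 1242 UMIs against 3190 to 4294.5 in the other libraries. Of all barcodes counted as monocytes, classical or non-classical, they were 65% (40.8 to 84.6%) in library 1, 50% (35.8 to 64.2%) in library 2, 32.8% (25.8 to 40.3%) in library 3, 7.69% (0.946 to 25.1%) in library 4 and 66.7% (9.43 to 99.2%) in library 5, which held 3 such barcodes. In library 1, 9 of the 13 barcodes carried Mgl2 and went against the name, as given below. The shares of library 1 are therefore not shares of non-classical monocytes alone.

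Most of the barcodes met the rule narrowly. Exactly 2 of the 4 genes were seen in 75 barcodes, 3 in 15 and all 4 in 10. Ear2 was seen in 71 barcodes, Adgre4 in 69, Treml4 in 65 and Cd300e in 30. The commonest pairs with nothing else were Ear2 with Adgre4 in 23 barcodes, Ear2 with Treml4 in 20 and Adgre4 with Treml4 in 20. As a check on the name, Ace was read in steps of the number of rule genes with the other limits of the rule held. Ace stood at 6.55 CPM (5.04 to 8.36) in 2618 Ptprc-positive barcodes with none of the 4 genes, 27.8 CPM (20.3 to 37.2) in 341 barcodes with 1 gene, just outside the rule, 191 CPM (143 to 250.4) in the 75 barcodes with 2 genes and 666 CPM (482 to 898) in the 25 with 3 or 4. These intervals did not overlap at any step. The same order held for Itgal (56.7, 67.3, 249.7 and 883 CPM) and for Gngt2, a G protein gamma subunit (176, 285, 833 and 1782 CPM). Mgl2, a C-type lectin of dendritic cells and macrophages, went another way, at 96.4, 634, 404 and 0 CPM, and the complement gene C1qb stood at 1642, 1518, 1285 and 325 CPM. Depth moved with these steps, at medians of 2167, 3781, 3303 and 2137 UMIs per barcode, and its part in them was not tested. The mix of libraries moved as well. Library 2, where Ace was higher than in library 3, made up more of the barcodes with 3 or 4 genes than of those with 2. Nearly all library 1 barcodes had exactly 2 genes. The steps were not read within single libraries, so the part of the library mix was not tested either.

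**Figure D1:**
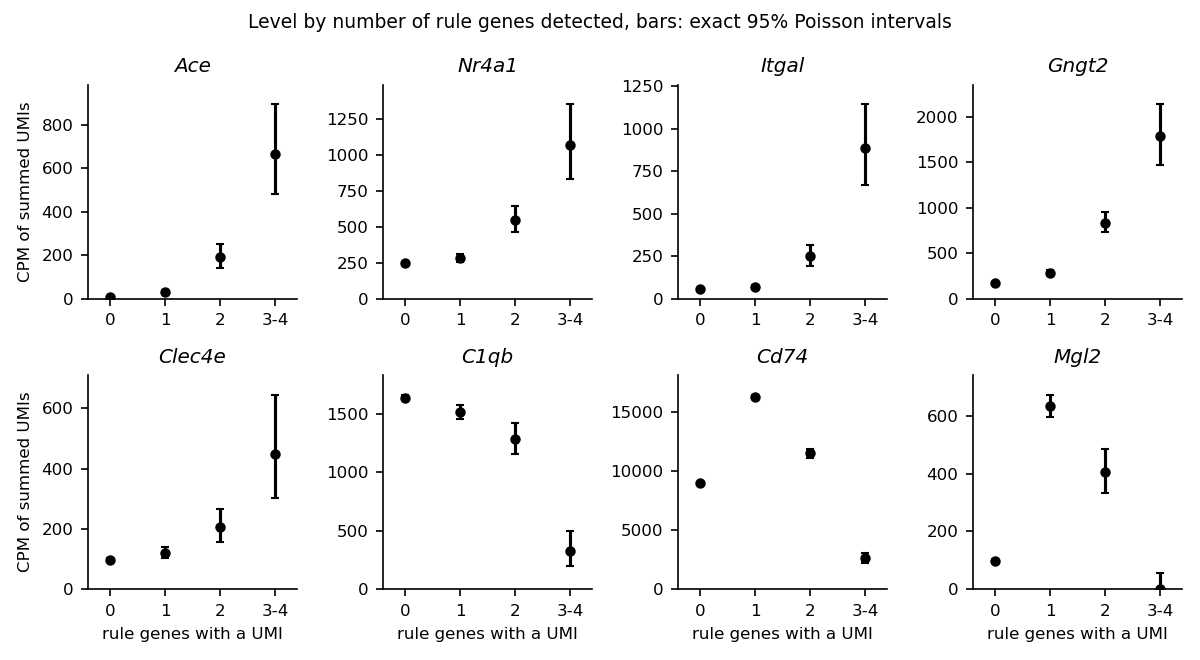
CPM of 8 genes (points, with exact 95% Poisson intervals as bars) against the number of rule genes with a UMI, for barcodes that met the other limits of the rule; each panel has its own linear axis from 0. Ace, Itgal and Gngt2 stood highest with 3 or 4 rule genes, at 666, 883 and 1782 CPM, where Mgl2 had 0 UMIs.

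Ace had a UMI in 55 of the 100 barcodes (44.7 to 65.0%), at a median depth of 3028 UMIs, against 5.14% of classical monocytes and 1.64% of C1q macrophages, which were deeper (medians of 3980 and 4236 UMIs). With every barcode thinned to 1000 UMIs the shares were 31.3%, 1.71% and 0.50%. Proximal tubule barcodes, whose cells make Ace, had a UMI in 21.1% at a median of 6938 UMIs. The Ace level was 282 CPM (228 to 345) in the 100 barcodes, and free RNA at the level estimated below would give 5.28 CPM. By library, Ace stood at 116 CPM in library 1, 541 CPM in library 2, 213 CPM in library 3, 375 CPM in library 4 and 979 CPM in library 5, and was seen in 3 of 13, 21 of 26, 28 of 57, 1 of 2 and 2 of 2 barcodes.

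Library 1 stood apart and went against the name. Of its 13 barcodes, 9 carried Mgl2, against 1 of 26 in library 2 and 0 of 57 in library 3. The 10 barcodes with Mgl2 had a UMI of Ear2 in 9 and of Adgre4 in 9, but of Treml4 in 1 and of Cd300e in 1. None of them had a UMI of Ace or of Clec4e, and 6 had Cd209a, a lectin of monocyte-derived dendritic cells. Their summed level of Cd74, the MHC class II invariant chain, was 31328 CPM, against 5538 CPM in the other 90 barcodes. Among all filtered barcodes, 341 had 2 or more Mgl2 UMIs, 166 of them in library 1 and 106 in library 2, and 99 of the 341 also had Ear2. These 10 barcodes are therefore called here by their genes, Mgl2-positive, and the main comparisons are also given without library 1, which held 9 of them.

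**Figure D2:**
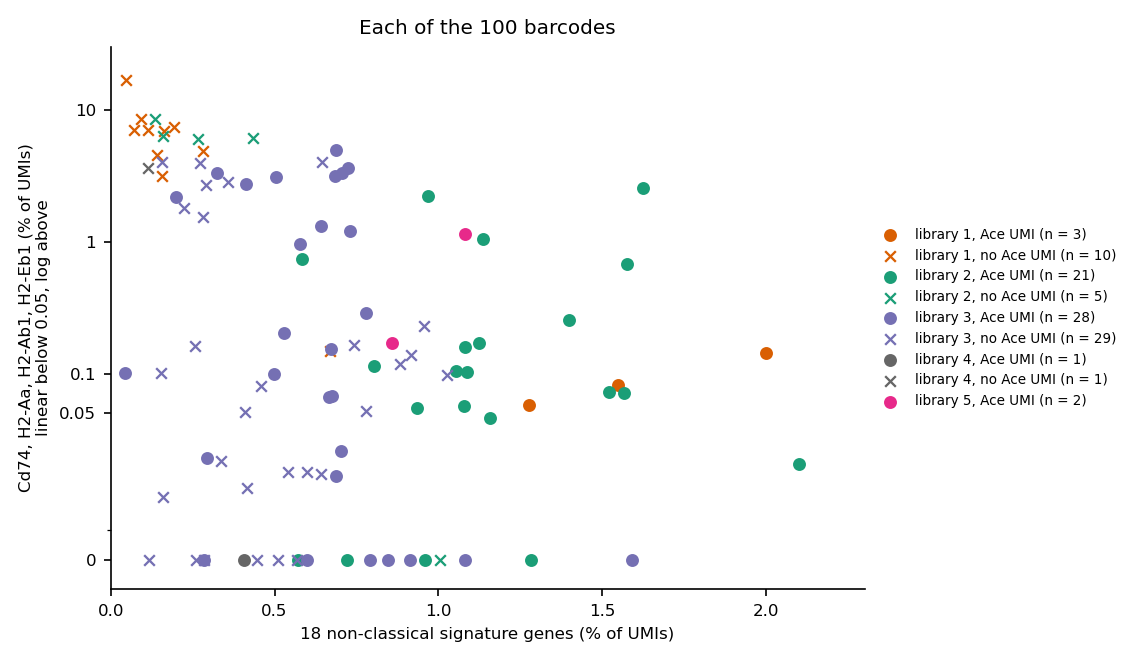
Each point is 1 of the 100 barcodes: the share of its UMIs on 18 non-classical signature genes (horizontal) and on 4 MHC class II genes (vertical, linear below 0.05% and logarithmic above). Circles have an Ace UMI and crosses have none, and colours mark the library number. Of the 13 library 1 barcodes 9 sit at the upper left, with no Ace UMI and MHC class II genes at 1% of UMIs or more.

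The share of UMIs on 4 MHC class II genes (Cd74, H2-Aa, H2-Ab1 and H2-Eb1) ran from 0.0581 to 16.8% over the barcodes of library 1, with a median of 4.89%. In library 2 it ran from 0 to 8.56% with a median of 0.110%, and in library 3 from 0 to 4.94% with a median of 0.0999%. A list of 18 genes known from non-classical monocytes, none of them in the rule, took a median of 0.162% of UMIs in library 1 (0.0465 to 2%), 1.07% in library 2 (0.137 to 2.10%) and 0.569% in library 3 (0.0451 to 1.59%). In total 35 barcodes had 1% or more of their UMIs on the 4 MHC class II genes, and 14 of these 35 had Ace, as did 41 barcodes below 1%. Of 16 signature genes tested, library 1 was at least 2-fold above library 2 for 1 and below it for 13, against 9.77% and 18.9% of all 870 genes tested. Against library 3 it was above for 3 and below for 9 of 16, with 8.97% and 24.3% of all 1807 genes. The barcodes of libraries 2 and 3 were thus mostly low in MHC class II genes and carried the signature, while most of library 1 did not.

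The first comparison asked how these barcodes differed from classical monocytes. Classical monocytes were 175 barcodes with at least 2 Ly6c2 UMIs, a UMI of Csf1r, Ccr2, F13a1 or Chil3 and no more than 1 rule gene. A gene was counted as higher or lower when its CPM differed by at least 2-fold, which is a size and not a test, among genes with at least 20 UMIs in both groups together. Of 5363 such genes, 374 (6.97%) were higher in the 100 barcodes and 339 (6.32%) lower. Of the 5363, 137 (2.55%) and 88 (1.64%) passed 2-fold also within library 2 and within library 3, where no minimum of UMIs was set. With that minimum 1190 genes could be tested in library 2 and 4137 in library 3. Many genes were thus too low there to show whether the pooled ratio recurred, and some that passed may rest on few UMIs. Without library 3, which held most barcodes, the count of higher genes was 203. The median log2 ratio over all 5363 genes was 0.0156. Of the 18 signature genes 14 were higher, none lower and 4 within 2-fold, with a median log2 ratio of 1.69. Leaving out library 1 gave 15 of 18, library 2 alone 12 of 16 tested (9.66% of all genes there) and library 3 alone 12 of 17 (7.06% of all genes there), with none lower in either. The list includes Ace, the fifth marker of these cells, and was drawn up with earlier results of these data known, so its direction is no independent evidence.

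Nr4a1, the nuclear receptor on which these monocytes depend, stood at 647 CPM (564 to 739) against 277 CPM in classical monocytes, a log2 ratio of 1.23 (0.94 to 1.51). It was at 251 CPM in library 1, 1150.0 CPM in library 2 and 565 CPM in library 3, and its log2 ratio to the classical monocytes of the same library was 2.45 in library 2 and 0.87 in library 3. Pou2f2, the transcription factor Oct-2, was at 362 against 107 CPM, a log2 ratio of 1.76 (1.33 to 2.19), and at 1.54 and 2.03 within libraries 2 and 3. Of 20 transcription factors of the monocyte and macrophage lineage, 17 were tested, 7 were higher (Nr4a1, Nr4a3, Klf4, Pou2f2, Hes1, Nr1h3 and Tcf7l2) and 1 lower (Cebpd). Within library 2, 2 of 9 tested were higher and 2 lower (9.66% and 10.9% of all genes there). Within library 3, 2 of 14 were higher and 1 lower (7.06% and 7.37% of all genes there). Nr4a3 rested on library 1: its log2 ratio was 2.03 with that library and 0.54 without it. Nr4a1 fell within 2-fold without library 2 (0.82) and Hes1 without library 3 (0.70), and Klf4, at 1.01, did so without library 2, 4 or 5 (0.89 to 0.99). Cebpb, a factor that these monocytes are known to need, was within 2-fold at 0.12 (-0.30 to 0.53), as were Klf2 at 0.75 and Irf8 at -0.03. The monocyte factor Spi1 was at 359 against 449 CPM.

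Genes of adhesion and crawling set the groups apart in part. Itgal, the alpha chain of the integrin LFA-1, was at 371 CPM (309 to 442) against 127 CPM, a log2 ratio of 1.55 (1.15 to 1.96) that was 1.64 in library 2 and 1.44 in library 3. Spn, the sialomucin CD43, was at 148 against 19.5 CPM, a log2 ratio of 2.93 (2.05 to 3.90). Cx3cr1 was at 187 against 77.9 CPM, but the order differed by library, with log2 ratios of -0.48 in library 2 and 2.17 in library 3, and no barcode of library 1 had a Cx3cr1 UMI. Without library 3 its ratio was -0.52. Of 19 adhesion and migration genes 17 were tested, 6 were higher (Itgal, Itgax, Cx3cr1, Spn, Cxcr4 and Pecam1) and 2 lower, Ccr1 among them at 50.5 against 147 CPM. Over all genes tested, 6.97% were higher and 6.32% lower. Within library 2, 3 of 13 were higher and 2 lower (9.66% and 10.9% of all genes there). Within library 3, 4 of 14 were higher and 2 lower (7.06% and 7.37% of all genes there). Pecam1, which endothelial cells also make, had a log2 ratio of 1.58 that turned to -0.38 with barcodes that carried UMIs of another lineage left out, and Cxcr4, at 1.04, was between 0.58 and 0.94 without library 2, 3 or 5. S1pr5, the sphingosine receptor of patrolling monocytes, had 5 UMIs in 5 barcodes and 0 in the classical monocytes and C1q macrophages, too few for the comparison.

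Of the other signature genes, Fcgr4 was at 234 against 34.8 CPM, a log2 ratio of 2.75 (2.09 to 3.46), Gngt2 at 1015 against 329.6 CPM and 1.62 (1.38 to 1.87), and Eno3, a muscle-type enolase, at 71.2 against 5.56 CPM and 3.68 (2.14 to 5.67). Fcgr4 was also the 1 gene of 11 tested in the Fc receptor list that was higher, with 1 lower. Of all 5363 genes tested against classical monocytes 6.97% were higher and 6.32% lower, so both counts were near the share over all genes. The partner chain of Fcgr4, Fcer1g, was level at 3019 against 2942 CPM. Cd36, a receptor for fatty acids and oxidised lipoproteins, was at 184 against 13.9 CPM and the fatty acid binding protein Fabp4 at 151 against 20.9 CPM. Both were highest in library 2, at 474 and 446 CPM, against 59.5 and 79.3 CPM in library 3 and 289.6 and 38.6 CPM in library 1. Abcg1 and Nr1h3, a sterol exporter and the nuclear receptor that induces it, had log2 ratios of 1.48 (0.75 to 2.23) and 3.02 (1.55 to 4.796), with Abcg1 at 0.75 without library 2. Among 17 tested lipid and scavenger genes 6 were higher and 3 lower, with a median log2 ratio of 0.57, while against the C1q macrophages described below 2 of 18 were higher (Apoc2 and Nr1h3) and 8 lower, with a median of -0.79. Of all 9920 genes tested against those macrophages 10.8% were higher and 13.1% lower, so the 2 higher were near the share over all genes. Cd36 was within 2-fold of those macrophages, at 0.24 with library 1 and -0.23 without it, and neither Apoc2 (0.42 without library 2) nor Nr1h3 (0.14 without library 3) stayed past 2-fold there.

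**Figure D3:**
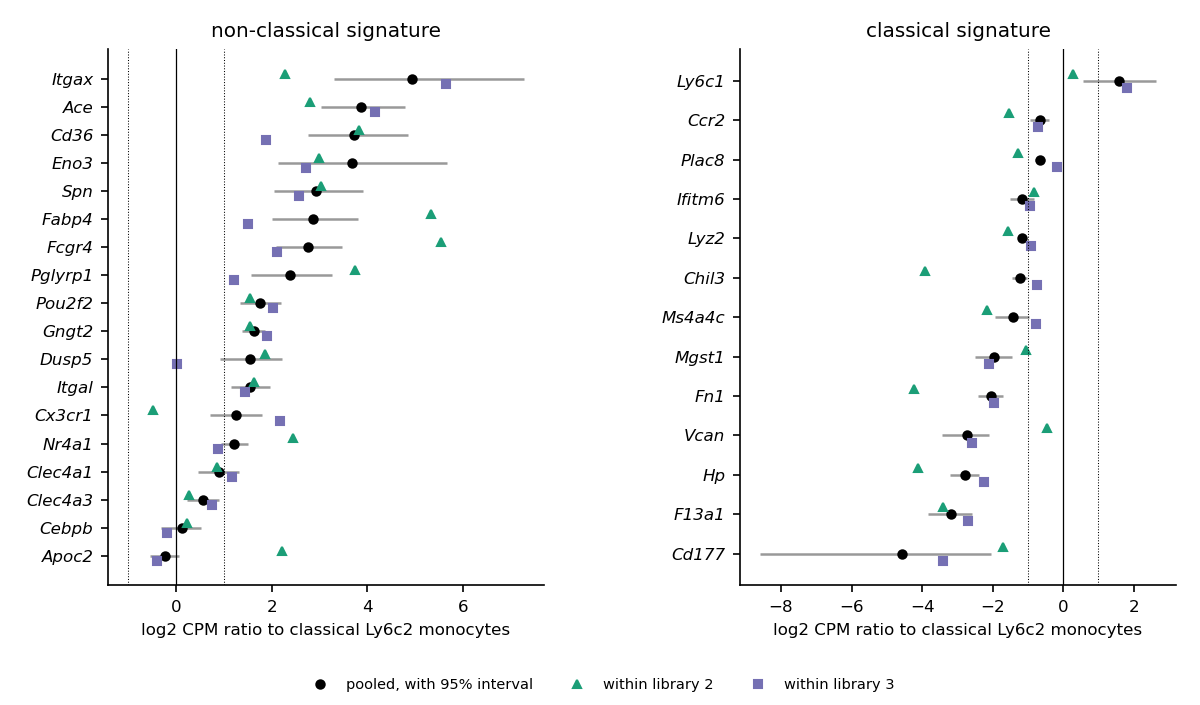
Log2 CPM ratio of the 100 barcodes to 175 classical monocytes for genes of 2 lists: black points are pooled values with exact 95% intervals (cut at -8.6), triangles and squares the ratios within libraries 2 and 3, and dotted lines 2-fold. A group at 0 UMIs, such as library 2 for F13a1, is set at 3 UMIs. Of the 18 non-classical genes 14 lie at or beyond 2-fold to the right, and of the 13 classical genes drawn 10 lie to the left.

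Of 14 genes known from classical monocytes, 11 were lower, 1 higher and 2 within 2-fold, with a median log2 ratio of -1.69. Of these 14, Ccr2, F13a1 and Chil3 helped to choose the classical monocytes, so their ratios are a description. Leaving out library 1 gave 10 lower, library 2 alone 10 of 11 tested (10.9% of all genes there) and library 3 alone 7 of 14 (7.37% of all genes there), with none higher in library 2 and 1, Ly6c1, in library 3. Chil3 was at -0.97 without library 2 and Ifitm6 at -0.94 without library 1. F13a1, coagulation factor XIII A, was at 71.2 CPM (45.6 to 106.0) against 648 CPM, a log2 ratio of -3.19 (-3.84 to -2.59). Hp (haptoglobin) and Vcan (versican) had log2 ratios of -2.79 and -2.73. Slpi, a protease inhibitor, was at 62.3 against 623 CPM, and the neutrophil collagenase Mmp8 had 3 UMIs, a log2 ratio of -4.34 (-6.64 to -2.76). The 1 gene that was higher, Ly6c1, had its 21 UMIs in 2 barcodes, and its ratio was 0.70 without library 3 and -2.55 with barcodes that carried UMIs of another lineage left out. The 2 genes within 2-fold were Ccr2, the receptor of Ccl2, at 433 against 686 CPM, and Plac8 at 1659 against 2629 CPM. Library 3 kept more of these transcripts than library 2. In library 3, Chil3, a chitinase-like protein of classical monocytes, was at 976 CPM and F13a1 at 114 CPM, while in library 2 they were at 67.7 and 0 CPM.

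The same contrast showed in a direct reading of library 2 against library 3 among the 100 barcodes. Of the 18 signature genes, 10 were at least 2-fold higher in library 2 and none lower, when 9.85% of the 1989 genes tested were higher and 18.2% lower. Of 11 classical genes tested, none was higher and 5 were lower in library 2. Ace was at 541 against 213 CPM, a log2 ratio of 1.34 (0.69 to 2.0), and Itgal at 798 against 273 CPM, a ratio of 1.55 (1.00 to 2.11). Between the classical monocytes of the same 2 libraries, 4 of 10 tested signature genes were higher in library 2 and 1 lower, against 10.4% and 13.8% of all 3568 genes tested. The estimate of free RNA also differed, as given below, and the part of free RNA in this contrast was not tested.

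MHC class II genes were higher than in classical monocytes, but their level followed the library. Of 12 MHC genes 8 were higher (Cd74, H2-Aa, H2-Ab1, H2-Eb1, H2-DMb1, Ciita, H2-K1 and H2-Q7), none was lower, and the median log2 ratio was 1.63. Cd74 was at 9789 CPM (9458 to 10129) against 1821 CPM, a log2 ratio of 2.43 (2.33 to 2.52). It was at 29594 CPM in library 1, 9051 CPM in library 2, 5100 CPM in library 3, 9386 CPM in library 4 and 4162 CPM in library 5. H2-K1 was at 0.95 without library 2 and 0.76 without library 3, and H2-DMb1 at 0.88 without library 1 and 0.41 without library 3. Without library 1, with the minimum of 20 UMIs applied again, 6 of the 12 were higher. Without that minimum Ciita was also past 2-fold, at 1.79. Cd74 had a log2 ratio of 2.28 without library 1, and within libraries 2 and 3 it was 1.73 and 3.08. In library 2, 4 barcodes without an Ace UMI held 212, 158, 83 and 70 of the 669 Cd74 UMIs. The 21 barcodes of library 2 with an Ace UMI were at 2792 CPM, near the 2734 CPM of its classical monocytes. Cd74 differed by library in the other groups too: classical monocytes of libraries 1, 2 and 3 were at 14659.9, 2734 and 603 CPM, and C1q macrophages at 28363, 13104 and 4215 CPM. In the 69 barcodes with neither Mgl2 nor 2 UMIs of C1qb, Cd74 was at 3151 CPM. The genes with the largest ratios outside the rule belonged in part to the Mgl2-positive barcodes. Mgl2 itself was in 10 barcodes, Retnla, a resistin-like protein of alternatively activated macrophages, in 3 barcodes of library 1, and Ccl17, a chemokine of dendritic cells, in 4. All 3 had 0 UMIs in classical monocytes. Mmp12, a macrophage elastase, Pltp, a phospholipid transfer protein, and Slamf9 stood at 405, 1351 and 289.6 CPM in library 1 against 0, 154 and 34.7 CPM in library 3. Their log2 ratios were 5.79, 4.64 and 4.85 with library 1 and 3.60, 3.66 and 4.86 without it. Slc12a2, a sodium-potassium-chloride cotransporter, and Ceacam1, an adhesion molecule, had log2 ratios of 3.71 and 1.72 with library 1 and 3.79 and 1.95 without it.

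Survival genes of the Bcl2 family were among those higher than in classical monocytes with all libraries pooled. Bcl2a1a, Bcl2a1b, Bcl2a1d and Bcl2 had log2 ratios to classical monocytes of 3.68, 1.87, 2.42 and 2.09, and the other 9 tested of 14 genes for growth factor receptors and survival, Csf1r (398 against 275 CPM) and Mcl1 (525 against 444 CPM) among them, were within 2-fold. The Bcl2a1 copies are near-identical, so their split is uncertain. Of the 14 genes, within library 2, 2 of 8 tested were higher and 2 lower, and within library 3, 2 of 11 were higher and 1 lower. Over all genes tested against classical monocytes, 6.97% were higher and 6.32% lower with all libraries pooled. Within library 2 these shares were 9.66% and 10.9%, and within library 3 they were 7.06% and 7.37%. In this list and those that follow, a count of 1 in 10 to 12 tested genes is near these shares. Against the C1q macrophages described below 1 of 14 was higher and 2 were lower, Bcl2a1b among them. Both counts were near the shares over all genes there, 10.8% and 13.1%. Of 10 tested interferon-stimulated genes none was higher and 1, Oasl2, was lower, with none higher and 2 of 8 lower (Cxcl10 and Ifi27l2a) within library 2 and all 8 tested within 2-fold in library 3. Of 12 lysosomal genes none was higher and 1, Ctsd, was lower, at 347 against 880.4 CPM, a log2 ratio of -1.34 that was -0.36 without library 4. Of 10 immediate early and stress genes Egr1 and Hspa1a were higher, while within library 2 alone 7 of 8 tested were higher and within library 3 alone 2 of 10, and Egr1 was at 0.88 without library 3. Of 10 tested genes of a complement and coagulation list, in which Ace was also counted, Ace alone was higher and C3, C3ar1 and F10 were lower, C3ar1 at -1.13 with library 3 and 0.38 without it. Within library 2, 1 of 4 tested was higher and 2 were lower, and within library 3, 2 of 10 (Ace and the thrombomodulin gene Thbd) were higher and 3 lower.

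The second comparison was with C1q macrophages, 853 barcodes with at least 2 UMIs each of C1qa, C1qb and C1qc and, again, no more than 1 rule gene. Of 9920 genes tested, 1075 (10.8%) were higher in the 100 barcodes and 1304 (13.1%) lower, and 425 (4.28%) and 138 (1.39%) passed 2-fold also within libraries 2 and 3. Of the 18 signature genes 14 were higher and none lower, with a median log2 ratio of 1.68 against 0.0141 over all genes, and 13 without library 1. Within library 1, 6 of 15 tested were higher and 1 lower (16.8% and 11.6% of all genes there), within library 2, 15 of 18 and none (18.2% and 12.4%), and within library 3, 10 of 17 and 1 (10.2% and 11.2%). Itgal was at 371 against 24.9 CPM, a log2 ratio of 3.90 (3.53 to 4.27). Cx3cr1, which kidney macrophages also make, was level at 187 against 208 CPM. Of 12 classical monocyte genes tested, 7 were higher and none was lower, with Plac8 at 1659 against 67.7 CPM, Chil3 at 632 against 54.0 CPM, Hp at 154 against 9.83 CPM and Ifitm6 at 267 against 11.8 CPM. By library, 3 of 7 tested classical genes were higher and none lower in library 1, 5 of 8 higher and 3 lower in library 2, and 7 of 12 higher and 1 lower in library 3. Ceacam1, Gpr141, Tppp3 and Ccdc88c, with log2 ratios of 4.22, 4.32, 4.42 and 5.72, were among the 15 genes furthest above. Of these 4, Ceacam1 was also higher than in classical monocytes and the others lay within 2-fold of them. Pglyrp1, a peptidoglycan recognition protein of the signature, was above both, with log2 ratios of 5.40 (4.55 to 6.33) and 2.38 (1.56 to 3.26).

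Of the 12 genes of resident macrophages 11 were lower than in C1q macrophages, with a median log2 ratio of -2.31, 3 of them (C1qa, C1qb and C1qc) used to choose that group. Apoe was at 3013 against 17950 CPM, a log2 ratio of -2.57 (-2.67 to -2.49), Trem2, a lipid receptor of macrophages, at 26.7 against 462 CPM, and the chemokine Pf4 at 20.8 against 861 CPM. Of 12 lysosomal genes 6 were lower and none higher (Ctsb, Ctsd, Ctsl, Ctsz, Lgmn and Hexa), of which Ctsz and Lgmn were within 2-fold without library 2 (-0.94 and -0.96), Hexa without library 3 (-0.92) and Lgmn also without library 4 (-0.93). Of 20 cytokine and chemokine genes 9 were lower and none higher with all libraries pooled. Of 18 tested in each library, 8 were lower and 3 higher (Ccl6, Ccl9 and Il1rn) in library 1, 9 lower and none higher in library 2, and 9 lower and 1 higher (Pdgfb) in library 3. Over all genes tested, 11.6% were lower and 16.8% higher in library 1, 12.4% and 18.2% in library 2, and 11.2% and 10.2% in library 3. The 3 higher in library 1 were thus near the share over all genes. Ccl2 was at 56.4 against 689 CPM, Ccl3 at 128 against 729 CPM and Ccl4 at 715 against 2442 CPM, with Ccl4 at a log2 ratio of -1.77 that was -0.97 without library 3. Of 14 interferon-stimulated genes 2 were higher (Ifitm2 and Ifitm3) and 4 lower (Ifit1, Oasl1, Oasl2 and Cxcl10). Within library 2, 8 of the 14 were higher and 1 lower, with Ifitm3 at 2.42, while 1 of 10 was higher and 3 lower in library 1 and 1 of 8 higher in library 3. Ifitm2 fell within 2-fold without library 2 (0.96), Oasl2 without library 3 (-0.67), Cxcl10 without library 1 or 3 (-0.82 and -0.78) and Oasl1 without library 1, 2 or 3 (-0.65, -0.17 and 0.070). Gpnmb and Arg1, genes of macrophages in injured tissue, had 1 UMI each in the 100 barcodes, against 479 and 223 CPM. The chemokine Ccl12 had 0 UMIs, against 292 CPM. All 12 MHC genes were within 2-fold of the macrophages with all libraries pooled. Within library 1, 3 of 12 were higher and none lower, within library 2, 1 of 12 was higher and 2 were lower, and within library 3 none of 10 tested passed 2-fold. Without library 1, H2-Eb1 alone of the 12 passed 2-fold, at a log2 ratio of -1.03, and with the 26 barcodes that carried 2 or more C1qb UMIs left out 5 of the 12 were lower.

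**Figure D4:**
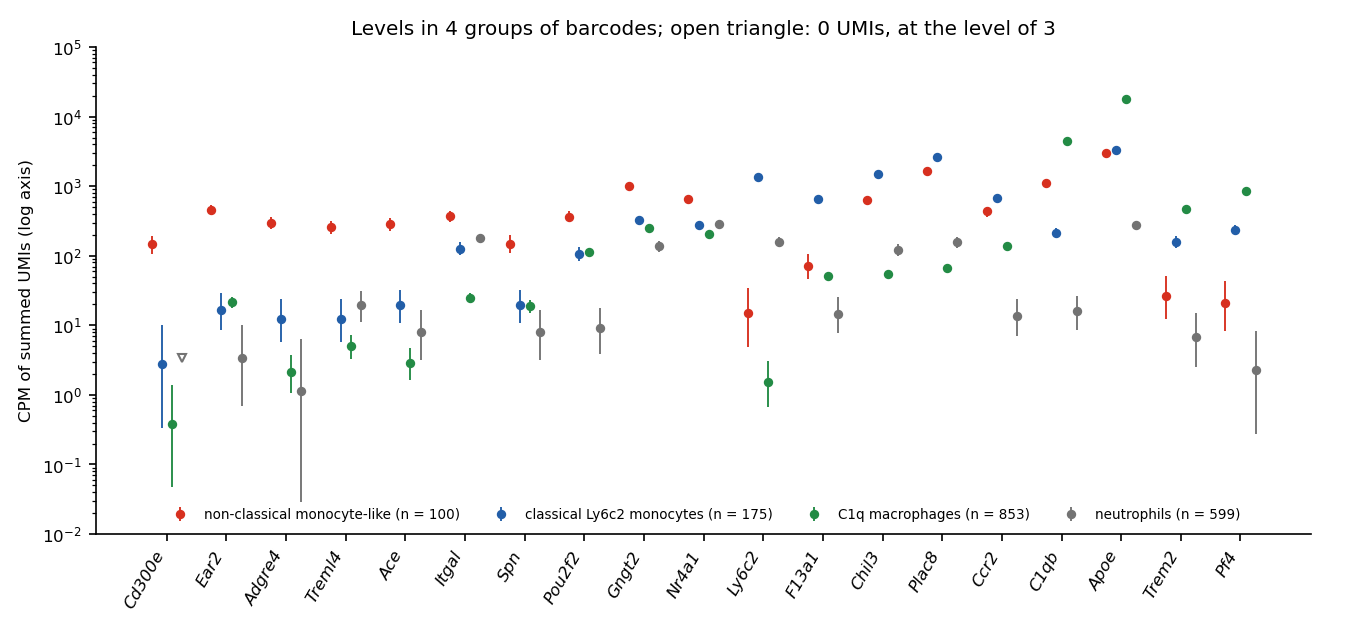
CPM on a logarithmic axis of 19 genes in the 100 barcodes, 175 classical monocytes, 853 C1q macrophages and 599 neutrophils, with exact 95% Poisson intervals; open triangles stand at the level of 3 UMIs for groups with 0 UMIs. The rule genes and Ace were above the other 3 groups, and C1qb (1101 CPM) and Apoe (3013 CPM) lay below the C1q macrophages.

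Clec4e, which encodes Mincle, the C-type lectin receptor that the study was about, lies on chr6:123281789-123289870 on the minus strand. It stood at 252 CPM (202 to 312) in the 100 barcodes, from 85 UMIs in 36 barcodes. The level was 0 of 13 barcodes in library 1, where 3 UMIs would make 57.9 CPM, 257 CPM in library 2, 317 CPM in library 3, 375 CPM in library 4 and 0 in the 2 barcodes of library 5. Classical monocytes were at 406 CPM, a log2 ratio of -0.69 (-1.05 to -0.33), which was -0.46 without library 1 and -0.56 and -0.45 within libraries 2 and 3. Neutrophils were higher at 1176 CPM, a log2 ratio of -2.22 (-2.56 to -1.90). C1q macrophages were lower at 71.5 CPM, a log2 ratio of 1.82 (1.46 to 2.16), and proximal tubule barcodes had a UMI in 0.589%. Without library 3 the level was 155 CPM. The order from neutrophils to classical monocytes, the 100 barcodes and C1q macrophages thus had no pooled interval of a ratio to the 100 barcodes that included 0. Within library 2 the interval of the ratio to classical monocytes did include 0 (-1.45 to 0.30), and within library 3 it ran from -0.88 to -0.05. The ratio to C1q macrophages was 1.51 (0.75 to 2.20) in library 2 and 1.62 (1.12 to 2.13) in library 3. Clec4e was seen in 20 of the 55 barcodes with Ace, at 224 CPM, and stood at 279.8 CPM in the 45 without Ace. It was at 206 CPM (155 to 267) in barcodes with 2 rule genes and at 449 CPM (301 to 646) in those with 3 or 4. A single barcode held 13 of the 29 Clec4e UMIs in that last set, so its higher level rests in large part on that barcode. The same barcode had no Ace UMI and is counted in the 45 without Ace.

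Of the 10 genes of the Mincle list tested against C1q macrophages, Clec4e, Clec4a1 and Clec4a3 were higher and Clec4d and Clec4n lower. Of all genes tested there 10.8% were higher and 13.1% lower, so the 2 lower were near the share over all genes. Clec4d, its neighbour and partner, was at 53.4 CPM against 117 CPM in classical monocytes and 141 CPM in C1q macrophages, and Clec4n (Dectin-2) at 50.5 against 48.7 and 198 CPM. Clec4a1 and Clec4a3, lectins of the same family, were at 261 and 392 CPM, within 2-fold of classical monocytes and above C1q macrophages by log2 ratios of 1.93 and 1.81. The downstream genes Syk, Bcl10 and Malt1 were within 2-fold of both groups, with Syk at 139.5 CPM against 149 and 81.5 CPM. Card9, with 4 UMIs, was within 2-fold of C1q macrophages and too low to be tested against classical monocytes. Of the 9 genes of the list tested against classical monocytes none was higher and 1, Clec4d, was lower. Its log2 ratio was -1.13, with -0.95 without library 1 and -0.99 without library 2. Of all genes tested 6.97% were higher and 6.32% lower, so the 1 lower was near the share over all genes. Within library 2 none of 6 tested passed 2-fold (9.66% of all genes there were higher and 10.9% lower). Within library 3 Clec4a1 and Clec4n (1.17 and 1.00) of 9 were higher and none was lower (7.06% and 7.37% of all genes there). Against C1q macrophages Clec4d was at -0.54 without library 2.

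Tnf, the cytokine that the study followed beside Mincle, was at 113 CPM (79.8 to 155) from 38 UMIs in 21 barcodes. It was at 57.9 CPM in library 1, 230.0 CPM in library 2 and 89.2 CPM in library 3, with 0 UMIs in libraries 4 and 5. In library 2, a single barcode with 44 C1qb UMIs and no Ace UMI held 6 of the 17 Tnf UMIs. Classical monocytes were at 37.6 CPM, a log2 ratio of 1.59 (0.84 to 2.36), which was 2.05 (0.55 to 3.84) in library 2 and 1.16 (0.15 to 2.15) in library 3. C1q macrophages were at 213 CPM, a ratio of -0.92 (-1.42 to -0.45) that was 0.24 (-0.55 to 0.94) in library 2 and -1.28 (-2.07 to -0.57) in library 3, and neutrophils at 124 CPM, a ratio of -0.13 (-0.71 to 0.41). Tnf and Clec4e were seen together in 12 barcodes. Of 17 cytokine and chemokine genes tested against classical monocytes 4 were higher (Tnf, Il1rn, Cxcl16 and Pdgfb) and 3 lower (Il6, Ccl2 and Ccl7). Over all genes tested, 6.97% were higher and 6.32% lower. Within library 2, 3 of 9 were higher and 1 lower (9.66% and 10.9% of all genes there). Within library 3, 2 of 15 were higher and 4 lower (7.06% and 7.37% of all genes there). Il1rn, the interleukin 1 receptor antagonist, rested on library 1: its log2 ratio was 1.32 (0.57 to 2.07) with that library and -0.73 without it. Cxcl16 was at 1.47 with library 3 and 0.34 without it. Il1b, at 3173 CPM against 1821 CPM in classical monocytes, 2584 CPM in C1q macrophages and 7982 CPM in neutrophils, was within 2-fold of both monocytes and macrophages.

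**Figure D5:**
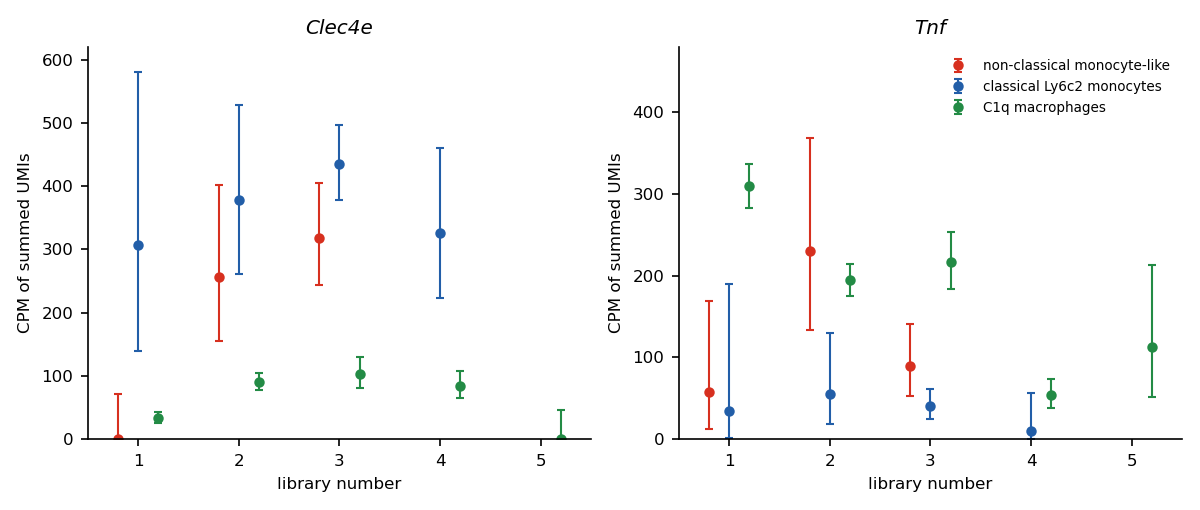
CPM of Clec4e (left) and Tnf (right) by library number, with exact 95% Poisson intervals, in the 100 barcodes, classical monocytes and C1q macrophages; groups of fewer than 7 barcodes are not drawn. Clec4e of the 100 barcodes was at 257 and 317 CPM in libraries 2 and 3, above the C1q macrophages of the same libraries, and had 0 UMIs in library 1.

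Antigen presentation genes were among those with the highest variance-to-mean ratios over the 100 barcodes. Thinned to 1000 UMIs, which left 99 barcodes, the 728 genes with at least 20 UMIs had a median variance-to-mean ratio of 1.13 over barcodes, where counting alone gives about 1. The ratio was 20.01 for Cd74, 11.5 for H2-Eb1, 10.2 for H2-Aa and 8.63 for H2-Ab1, and 6.42 for Mgl2. In the 87 of these barcodes outside library 1 it was 13.6 for Cd74, 7.94 for H2-Eb1, 6.71 for H2-Aa and 7.37 for H2-Ab1, with a median gene at 1.13. With all libraries, Spp1, osteopontin, was at 9.28 and Ccl4 at 7.19. Kap, a proximal tubule gene, was at 7.91, and the abundant noncoding transcripts Gm42418 and Malat1 at 14.2 and 7.29. The signature genes Ace (1.01), Spn (1.06) and Pou2f2 (1.04) lay below the median gene, while Itgal (1.73) and Nr4a1 (1.72) lay above it. For the same relative spread this ratio grows with a gene's level, so genes of unlike level cannot be ranked by spread with it. A value near 1 for a low gene such as Ace does not show an even level, and Ace differed by library as given above.

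A set of barcodes carried macrophage transcripts. C1qb was at 0 in 71 barcodes, at 1 UMI in 3, and at 2 UMIs or more in 26, of which 18 were in library 3. In these 26, C1qb was at 3289 CPM and C1qa at 1627 CPM, against 4514 and 3986 CPM in C1q macrophages, and their median depth was 3974.5 UMIs against 2451.5 UMIs in the other 74. Ace was seen in 9 of the 26, at 134 CPM, and in 46 of the other 74, at 356 CPM. Within library 3, where both sets are larger than 10 barcodes, Ace was at 212 CPM in the 18 barcodes with 2 or more C1qb UMIs and at 214 CPM in the 39 with fewer, Gngt2 at 1059 and 1077 CPM, Itgal at 184 and 321 CPM, and Cx3cr1 at 409 and 168 CPM. H2-Aa was at 3571 against 840 CPM there, and Chil3 at 395 against 1291 CPM. Whether a barcode with both sets of transcripts holds 1 cell or 2 was not tested, since no doublet caller was run. Of 12 resident macrophage genes 5 were higher than in classical monocytes (C1qa, C1qb, C1qc, Cd81 and Mrc1). Mrc1 was at 0.50 without library 1 and 0.97 without library 2, and C1qc at 0.70 without library 3. With the 26 barcodes left out 2 of the 12 were higher and 6 lower, and C1qa, C1qb and C1qc were below the classical level.

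RNA of tubule genes was present and gave the estimate of free RNA. The 10 proximal tubule genes of a list summed to 6281 CPM in the 100 barcodes, which was 19.96% of their level in droplets with 1 to 100 UMIs, against 16.8% in classical monocytes, 7.91% in C1q macrophages and 27.7% in neutrophils. The share was 11.8% in library 1, 6.51% in library 2 and 29.0% in library 3, and 21 barcodes had 1 Lrp2 UMI. By barcode the sum of the 10 genes ran from 0 to 52479 CPM, with a median of 4123 CPM. The highest value lay above the 31472 CPM of the droplets with 1 to 100 UMIs. The estimate counts all of this RNA as free, and the part of tubule cells in it was not tested. All 8 eosinophil genes, Ear1, Ear6 and Ear10 included, had 0 UMIs, and 2 barcodes had a UMI of a T or NK cell gene (both with 2 or more UMIs), 3 of a B cell gene (2 with 2 or more), 9 of an endothelial gene (1 with 2 or more) and 3 of a mesenchymal gene (none with 2 or more). The 10 neutrophil genes, 2 of which the rule capped, had a UMI in 25 barcodes (4 with 2 or more UMIs) and summed to 97.95 CPM, where free RNA would give 122 CPM and classical monocytes were at 2296 CPM. Mesenchymal genes and platelet and erythroid genes were far below the estimate, at 8.90 and 5.94 CPM against 422 and 39.5 CPM. T and NK cell, B cell and endothelial genes were above it, at 26.7, 17.8 and 97.95 CPM against 8.26, 4.50 and 8.41 CPM. The estimate is thus rough for single genes, Ace included. Dendritic cell genes had a UMI in 22 barcodes (6 with 2 or more UMIs) and summed to 907 CPM in library 1, 419 CPM in library 2 and 14.9 CPM in library 3, and 2 of the 8 genes, Xcr1 among them, had 0 UMIs.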

How the data were processed

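Kidney cells of 5 samples were profiled as droplet 3' single-cell libraries. The authors deposited 1 merged matrix of raw UMI counts over 32285 genes and 10474594 barcodes, before cell calling, made with Cell Ranger 6.0 per the submitters' processing notes and aligned to mm10. Members and gene lists were chosen with earlier results of these data known.

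Barcodes with at least 500 UMIs, 200 genes and at most 25% mitochondrial UMIs were kept, and no doublet caller was run. Classical monocytes also had S100a8 and S100a9 together under 3% of UMIs and no UMI of 5 lymphoid or plasmacytoid markers, neutrophils had 5% or more, and proximal tubule barcodes had 3 or more Lrp2 UMIs. Counts were summed per group and scaled to CPM. Ratios were given exact conditional binomial intervals, CPM exact Poisson intervals and shares Clopper-Pearson intervals. Where a group had 0 UMIs, a ratio was bounded with 3 UMIs in that group, and the gene was left out where that bound exceeded the level of the other group. With no library mapped to a condition no test was made, and "higher" and "lower" mean a CPM ratio of at least 2-fold. Shares were also read after thinning to 1000 UMIs. Free RNA was read from droplets with 1 to 100 UMIs.

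Genes were named from 27 lists, from the 15 highest and 10 lowest ratios in each comparison, ordered by the interval bound nearest 0, and from the 10 genes with the highest variance-to-mean ratio. Alternatives were other filters, thresholds and scalings and each library left out. The subsets by Mgl2 and C1qb were chosen after seeing the data. Scripts used Python 3.11.15, numpy 2.4.6, scipy 1.17.1 and pandas 2.3.3, and the ratios and intervals were tested on simulated data. Some genes that the lists count are not reported here.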

Additional observations from a re-analysis of the deposited data

How the results depend on the processing

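With at least 3 rule genes 25 barcodes were left, genes lower than in classical monocytes numbered 623, genes higher and lower than in C1q macrophages 1909 and 656, and Clec4e and Tnf stood at 449 and 155 CPM. Of the 29 Clec4e UMIs in those 25 barcodes, 13 came from a single barcode. Thinned to 1000 UMIs, 144 and 163 genes were higher and lower than in classical monocytes, 593 and 674 than in C1q macrophages, and Clec4e and Tnf stood at 354 and 70.7 CPM. With free RNA subtracted 583 genes were higher than in classical monocytes. With no minimum beyond 1 UMI, 2131 and 881 were higher and lower than in classical monocytes and 2019 higher than in C1q macrophages, and with at least 50 UMIs these were 117, 116 and 633. Leaving out 1 library at a time gave 43 to 98 barcodes, 203 to 368 genes higher and 265 to 338 lower than in classical monocytes, 975 to 1244 higher and 1074 to 1366 lower than in C1q macrophages, Clec4e at 155 to 298 CPM and Tnf at 79.9 to 148 CPM, the lowest count of genes, of barcodes and of Clec4e without library 3.

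Of 84 genes named in the report and past 2-fold against classical monocytes, 42 stayed past it in the same direction under every alternative that gave a value and 15 changed sign under at least 1. Against C1q macrophages these were 51 and 3 of 74. Log2 ratios that changed sign against classical monocytes are as follows, with a bound where the 100 barcodes had 0 UMIs. Here "without Mgl2" leaves out barcodes with an Mgl2 UMI and "without C1qb" those with 2 or more C1qb UMIs. With at least 3 rule genes they were -0.087 for C1qc, -0.61 for Cd81, -0.43 for Cxcl16, -0.41 for H2-DMb1 and -0.22 for Mrc1. Il1rn was at -1.18 thinned, -1.24 as the mean of libraries 2 and 3, -0.73 without library 1, -0.75 without Mgl2, -1.23 without C1qb and -1.47 without both. Nr4a3 was at -0.61 as the mean of libraries 2 and 3, -2.11 without Mgl2 and -1.61 without both. Without Mgl2, Cd209a was at -3.55 and Mrc1 at -0.76, and without both at -3.05 and -0.26, with H2-DMb1 at -0.092. Without C1qb, C1qa, C1qb and C1qc were at -3.18, -4.02 and -2.89, and without both at -3.005, -4.42 and -2.71, which follows from the choice. Ly6c1 was at -2.30 with the limits on Lrp2 and on S100a8 and S100a9 both tightened (Lrp2 at 0 UMIs, the pair under 0.5%) and at -2.55 without barcodes that held another lineage's UMI, where Pecam1 was at -0.38. Gpnmb was at 0.00299 as the mean of libraries 2 and 3, and without library 3 Cx3cr1 was at -0.52 and C3ar1 at 0.38. Against C1q macrophages, Retnla was at -0.66 as the mean of libraries 2 and 3, -1.69 without library 1, -2.02 without Mgl2 and -1.52 without both, and Lrp2, which the rule capped, at -0.84 with those limits tightened and -0.34 without library 3, with Oasl1 at 0.070 without library 3. The ranges over single libraries left out were -0.73 to 2.05 for Il1rn, -0.52 to 1.70 for Cx3cr1 and -1.95 to 0.38 for C3ar1 against classical monocytes, and -1.69 to 2.56 for Retnla, -0.34 to 1.75 for Lrp2 and -1.28 to 0.070 for Oasl1 against C1q macrophages. Beyond the choice of barcodes itself, the cause was not tested.

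No paired analysis was possible because the labels list 1 sample per condition and tie no library number to a condition. Depth limits single genes: 3 UMIs in the 100 barcodes made 8.90 CPM.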
